A study of Mus musculus with 6 samples.

Results

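The amino acid transporters described here are the glutamine transporter Slc38a5 and a group of its relatives. They were measured in brain of male FVB mice (FVB/N background) at postnatal day 6 that did or did not express human SRY. Of 10 listed transporter genes (Slc38a5, Slc38a1, Slc38a2, Slc38a3, Slc38a4, Slc7a1, Slc7a3, Slc7a5, Slc3a2 and Slc1a4), 9 had a probe under their symbol, with 13 probes among the 25697 of the array table, which names 18138 genes. Slc7a5 was not analysed here. Slc38a5 had been picked out because it fell most in hSRY-ON brain, so its difference between the groups is a description and carries no test. The relatives were listed by name and function. The 3 hSRY-OFF samples came from males that carry the Signalox-hSRY transgene unrecombined, so that the CAG promoter drives DsRed2 and SRY is silent. The 3 hSRY-ON samples came from males in which Cre, supplied by the egg of a Ddx4-Cre mother, had removed DsRed2 and put the human SRY-IRES-EGFP cassette under the same promoter. The pups chosen for hSRY-ON did not themselves inherit the Ddx4-Cre transgene. The study reports that hSRY-ON pups suckled little and were growth retarded by this age, and this was not separated from SRY here. All samples rest on 1 transgenic line with a single-copy insertion, whose promoter is active in most cell types, and the marker proteins DsRed2 and EGFP change together with SRY. The human SRY transcript itself was not analysed here.

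Amino acid transporters of the SLC families carry amino acids across cell membranes in a few classes. Slc38a5 and Slc38a3 encode system N transporters, which move glutamine, histidine and asparagine together with sodium in exchange for protons and can run in either direction. Slc38a1, Slc38a2 and Slc38a4 encode system A transporters, which take up small neutral amino acids with sodium. Slc7a1 and Slc7a3 encode carriers of arginine and lysine, Slc7a5 and Slc3a2 encode the light and heavy chains of a large neutral amino acid exchanger, and Slc1a4 encodes an exchanger of serine, alanine and other small neutral amino acids. In brain, system N transporters are known from astrocytes, which pass glutamine to neurons, and Slc38a5 also from the endothelium of the blood-brain barrier. Slc38a5 is likewise known from red cell precursors.

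RefSeq promoter windows (GRCm38.p6, 250 bases before to 50 after the annotated start, 300 in all) were at hand for 6 of the 10 genes. The window of Slc38a5 is shown because this gene carried the difference between the groups, and that of Slc38a2 because its brightest probe showed no difference larger than the spread. Capitals mark the E-box CACGTG, a palindrome bound by MYC, USF and related factors.
Slc38a5, chrX:8271131-8271430, plus strand: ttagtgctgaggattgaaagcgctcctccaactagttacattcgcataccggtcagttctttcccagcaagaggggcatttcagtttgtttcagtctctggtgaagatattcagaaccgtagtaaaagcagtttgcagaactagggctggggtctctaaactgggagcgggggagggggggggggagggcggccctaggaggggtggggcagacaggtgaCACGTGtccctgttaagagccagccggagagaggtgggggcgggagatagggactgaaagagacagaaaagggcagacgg
Slc38a2, chr15:96699679-96699978, minus strand: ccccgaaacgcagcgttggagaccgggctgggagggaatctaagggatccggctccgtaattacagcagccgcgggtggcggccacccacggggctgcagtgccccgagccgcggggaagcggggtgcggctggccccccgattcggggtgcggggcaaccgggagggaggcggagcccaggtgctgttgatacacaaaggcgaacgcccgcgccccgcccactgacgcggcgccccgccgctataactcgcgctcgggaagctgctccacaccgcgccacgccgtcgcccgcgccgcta
The E-box of Slc38a5 starts 30 bases before the annotated start, and 7.15% of the 32851 windows in the table hold this motif. On either strand, neither window holds the SOX motif AACAAT, found in 10.7% of all windows, or the motif TGATGNAAT read by ATF4 with C/EBP factors, found in 0.965%. Among the other relatives with a window, Slc7a1 alone held one of these motifs, an AACAAT match that starts 77 bases before the second of its 2 annotated starts. A match is a stretch of letters and was not tested for binding.

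The arrays were of similar brightness, with median intensities of 200.2 to 219.8 and 13816 to 14377 probes detected, that is, brighter than the negative controls at a detection p-value under 0.05. Detection on 3 or more of the 6 arrays was required for a test, and 14215 probes met this. Replicate 3 of hSRY-ON stood apart on the second principal component, which held 18.5% of the variance, with a score of -22.2 against 0.045 to 8.92 for the others. The 308 calls over all probes became 0 or 1 when any array other than hSRY-ON 3 was left out, and 417 without that array. Nothing in the labels says that the samples of a group came from different litters, so p-values measure the spread between these arrays. The study states that Cre from the egg recombines the transgene whether or not a pup inherits Cre. Pups with an unrecombined transgene would then come from other mothers, so mother and litter cannot be told apart from group.

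Slc38a5 was lower in hSRY-ON brain by more than any other probe that was tested. In hSRY-OFF the deposited intensities of its probe, ILMN_2649773, were 2742.0, 2355.1 and 2320.8. In hSRY-ON they were 582.9, 735.5 and 1085.6, each below every hSRY-OFF value. These intensities were 14.4 to 16.1 times the middle of the negative controls in hSRY-OFF and 3.5 to 6.66 times in hSRY-ON, so the transcript remained well above background in every sample. After normalization the log2 signal was 11.16, 11.13 and 11.14 in hSRY-OFF and 8.71, 9.27 and 9.94 in hSRY-ON. The groups did not overlap, and the highest hSRY-ON array differed from the hSRY-OFF mean by -1.2 on the log2 scale.

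The mean log2 signal of Slc38a5 was 11.14 ± 0.014 in hSRY-OFF and 9.31 ± 0.62 in hSRY-ON (SD, n = 3 each), a log2 fold change of -1.83 with an SE of 0.28, or 3.56-fold lower. It ranked first from the bottom among 14215 probes, of which 28 lay at -1 or below. The size of the fall differed between the hSRY-ON brains, at 5.38-fold in array 1, 3.67-fold in array 2 and 2.29-fold in array 3 against the hSRY-OFF mean. Slc38a5 was among the most even probes in hSRY-OFF, where 1.5% of tested probes had a smaller SD, and among the most uneven in hSRY-ON, where 99.6% had a smaller SD. The other probes that fell in hSRY-ON, 187 by adjusted p under 0.05, had a median shift of -0.73, -0.70 and -0.62 on hSRY-ON arrays 1 to 3. Without hSRY-ON array 3 the log2 fold change of Slc38a5 was -2.15, and without array 1 it was -1.54.

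**Figure D1:**
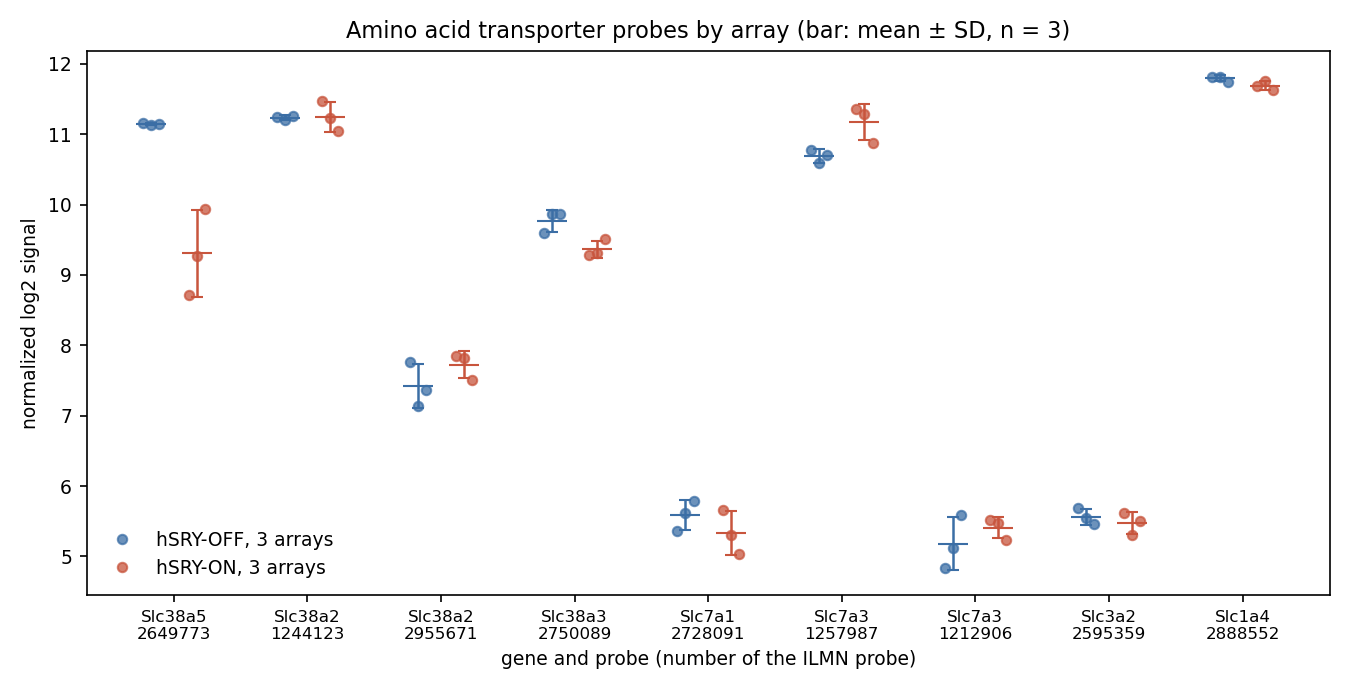
Normalized log2 signal (vertical axis) of the 9 transporter probes that were tested (horizontal axis, gene and probe number), with 1 point per array, blue for hSRY-OFF and red for hSRY-ON, and bars at the mean ± SD of 3 arrays. Slc38a5 falls from about 11.14 to between 8.71 and 9.94, whereas the relatives stay within 0.48 of their hSRY-OFF mean on average. Heights of different probes are not comparable as transcript levels.

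The relatives were then compared with Slc38a5 probe by probe. Of their 12 probes, 8 probes of 6 genes passed the detection filter, and 0 of the 8 reached an adjusted p under 0.05 in the limma fit across all probes, with 2 at an unadjusted p under 0.05. Over all tested probes 2.17% were called, 0.844% higher and 1.32% lower, and 20.9% had an unadjusted p under 0.05. Of the 8 values 4 were positive and 4 negative, and they ran from -0.41 to 0.48 around a median of -0.04, where the median over all probes was 0.0048. The groups did not overlap in 2 of the 8 (25%), near the 27.7% of all tested probes. The log2 fold change of Slc38a5 minus the median of the relatives was -1.79, and minus that of Slc38a3, the lowest among them, -1.43. Both are given without a test because Slc38a5 was chosen by its fall.

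Slc38a3, the other system N transporter, had log2 signals of 9.59, 9.86 and 9.86 in hSRY-OFF and of 9.28, 9.31 and 9.51 in hSRY-ON (ILMN_2750089). All 3 hSRY-ON arrays lay below the lowest hSRY-OFF array. The means were 9.77 ± 0.16 and 9.37 ± 0.12 (SD, n = 3 each), and the log2 fold change of -0.41 (SE 0.11) did not pass the limma fit at an adjusted p of 0.105. It was the relative nearest to Slc38a5 in both function and log2 fold change. The call of Slc38a3 depended on the processing, with adjusted p-values of 0.0152 without background correction, 0.0463 with normexp on the signals at an offset of 50 and 0.0113 with a trended robust prior (range over 16 alternatives 0.0113 to 0.261), all in the same direction.

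Slc38a2, the system A transporter that cells induce when amino acids run short, had 3 probes. The brightest gave 11.25, 11.20 and 11.26 in hSRY-OFF and 11.47, 11.24 and 11.05 in hSRY-ON (ILMN_1244123), with a log2 fold change of 0.014 (SE 0.12, limma adjusted p 0.964) and no settled sign, since it was -0.0022 without hSRY-OFF array 2 and -0.10 without hSRY-ON array 1. The hSRY-ON arrays lay on both sides of the hSRY-OFF arrays. The second gave 7.76, 7.14 and 7.36 in hSRY-OFF and 7.85, 7.82 and 7.51 in hSRY-ON (ILMN_2955671), with a log2 fold change of 0.31 (SE 0.17, limma adjusted p 0.361) and overlapping groups. The third, ILMN_2721692, was detected on 1 array and was not tested. The other system A genes could not be compared, as the probe of Slc38a1 (ILMN_2736140) was detected on 0 arrays and that of Slc38a4 (ILMN_1215803) on 2, with intensities of 171.5 to 201.9 and 171.6 to 200.5, near the level of the negative controls. An undetected probe limits what this probe can show and says nothing on whether the gene is transcribed.

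Slc7a3, a carrier of arginine and lysine known from neurons, had the largest positive value among the relatives. Its bright probe gave 10.78, 10.59 and 10.70 in hSRY-OFF and 11.36, 11.29 and 10.87 in hSRY-ON (ILMN_1257987). Every hSRY-ON array lay above every hSRY-OFF array, with array 3 of hSRY-ON the nearest to them. The means were 10.69 ± 0.096 and 11.17 ± 0.26 (SD, n = 3 each), and the log2 fold change of 0.48 (SE 0.14) did not pass the limma fit at an adjusted p of 0.116. Without hSRY-ON array 3 it was 0.63 and passed at 0.0350, and it also passed without background correction (0.0104), with normexp on the signals at an offset of 50 (0.0445) and with a trended robust prior (0.00687, range over 16 alternatives 0.00687 to 0.274). A second, dim probe of Slc7a3, detected on 3 arrays, had a log2 fold change of 0.23 (SE 0.19, limma adjusted p 0.537), with overlapping groups. Slc7a1, the widely expressed member of this class, was near background at its tested probe (ILMN_2728091, detected on 3 arrays), with 5.37, 5.62 and 5.80 in hSRY-OFF, 5.66, 5.31 and 5.04 in hSRY-ON and a log2 fold change of -0.26 (SE 0.18, limma adjusted p 0.457). Its other probe, ILMN_2717965, was detected on 0 arrays.

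Slc1a4, the serine and alanine exchanger, was detected on all 6 arrays. It gave 11.82, 11.81 and 11.74 in hSRY-OFF and 11.69, 11.75 and 11.62 in hSRY-ON (ILMN_2888552). The groups overlapped, with a log2 fold change of -0.10 (SE 0.077, limma adjusted p 0.488). Slc3a2, the heavy chain shared by several SLC7 exchangers, was dim and detected on 4 arrays. Its signals were 5.68, 5.54 and 5.46 in hSRY-OFF and 5.61, 5.30 and 5.50 in hSRY-ON (ILMN_2595359), which overlapped, with a log2 fold change of -0.09 (SE 0.11, limma adjusted p 0.680).

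**Figure D2:**
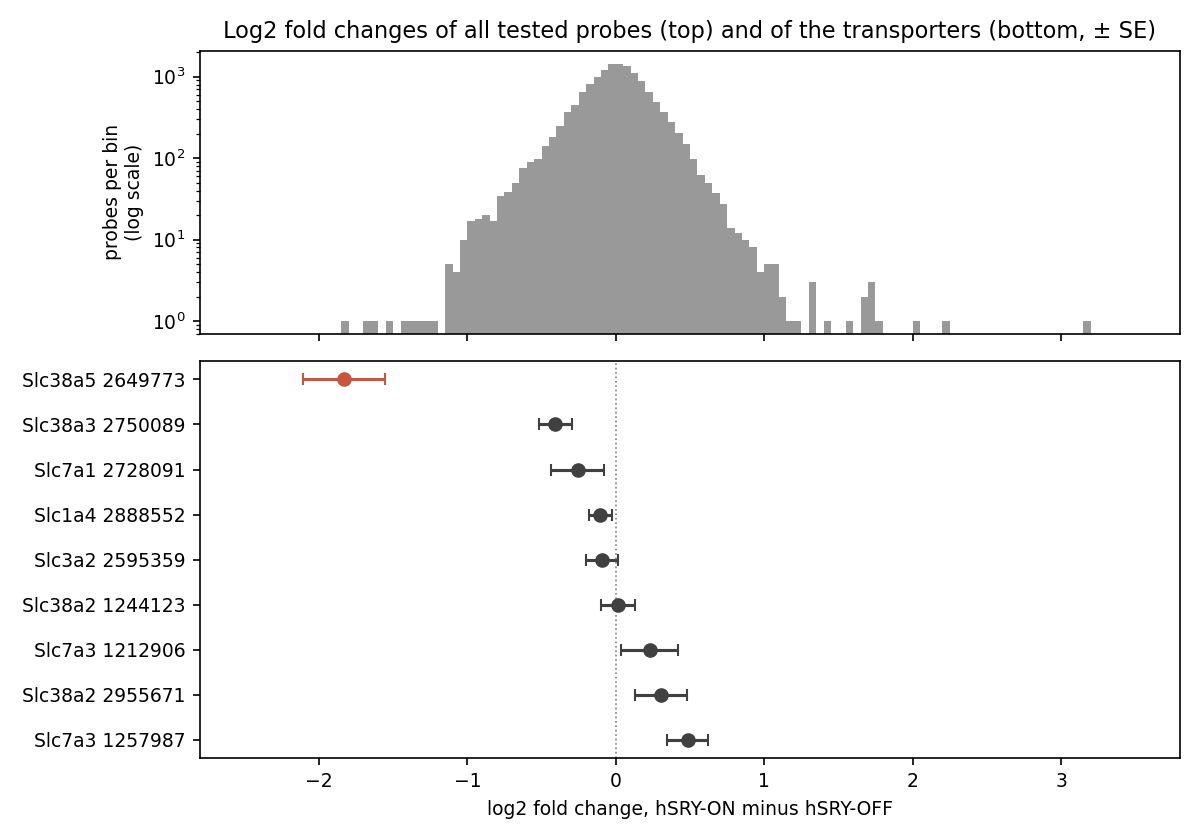
Log2 fold changes, hSRY-ON minus hSRY-OFF (horizontal axis of both panels). The upper panel counts all 14215 tested probes in bins of equal width on a log scale, and the lower panel gives the 9 transporter probes with their SE, Slc38a5 in red. Slc38a5 at -1.83 lies at the lower end of all probes, and the relatives lie between -0.41 and 0.48.

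The probes whose pattern over the 6 arrays was most like that of Slc38a5 were sought by Pearson's r, which here mostly follows the split between the groups and is given as a description. The 5 highest values, 0.9967 to 0.9978 over 6 arrays, belonged to Cobll1, 2610510J17Rik (current symbol Cenpn), Mfge8, Mcm3 and LOC100040592. Cenpn encodes a protein of the centromere and Mcm3 a subunit of the helicase that unwinds DNA for replication, while Mfge8 encodes a secreted protein that bridges cells to phosphatidylserine. In each of these probes, as in Slc38a5, the hSRY-OFF arrays were nearly level and the hSRY-ON arrays were spread out with array 1 lowest and array 3 highest. This likeness follows from their choice by r. Mcm3 had the largest difference of the 5, from 7.76 ± 0.030 to 6.83 ± 0.38 (SD, n = 3 each), a log2 fold change of -0.93, and LOC100040592 the smallest, at -0.24. In all, 321 tested probes (2.26%) had an r of at least 0.95 with Slc38a5, and 205 had an r of -0.95 or lower. Slc38a3 had an r of 0.91, at rank 644 from the top, the bright Slc7a3 probe had -0.95, and Slc1a4 had 0.60.

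**Figure D3:**
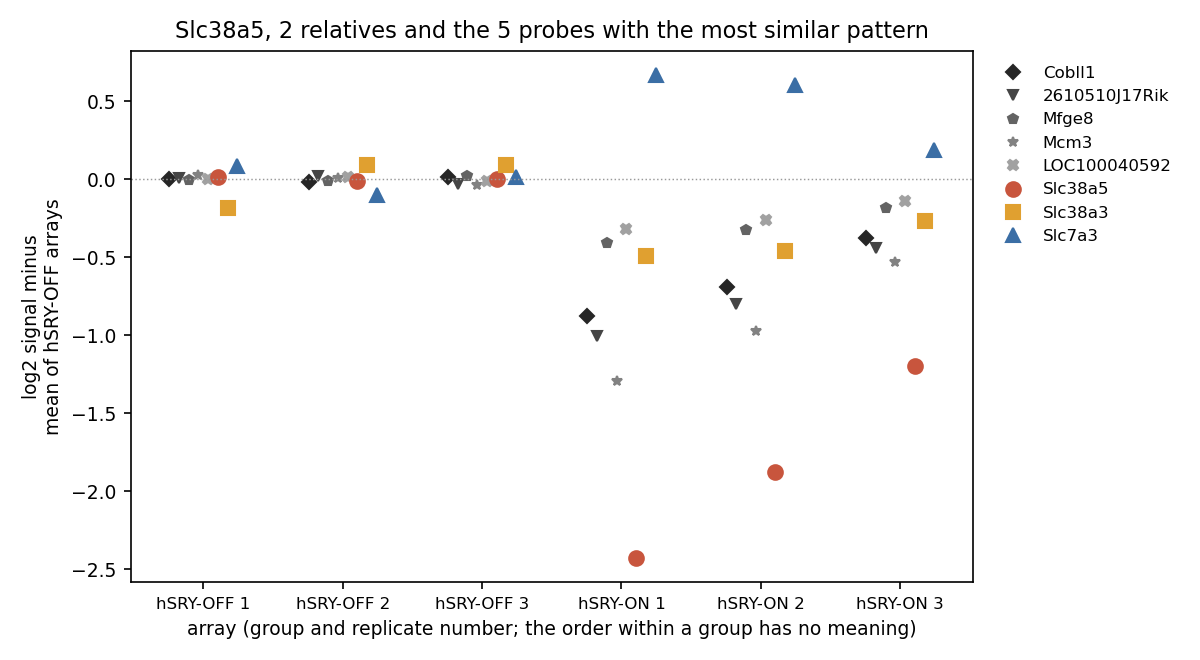
Log2 signal minus the mean of the hSRY-OFF arrays (vertical axis) on each of the 6 arrays (horizontal axis) for Slc38a5 (red circles), Slc38a3 (orange squares), the bright Slc7a3 probe (blue triangles) and the 5 probes with the highest r (grey and black marks). On the hSRY-ON arrays the grey and black marks follow the order of Slc38a5 at a smaller size, which follows from their choice by r. Slc38a3 lies below its hSRY-OFF mean on all hSRY-ON arrays, and Slc7a3 lies above its own.

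Slc38a5 lies on the X chromosome, and the 3 genes on either side of it in the RefSeq gene table were looked at next. Porcn, an acyltransferase for Wnt proteins, had 2 tested probes with log2 fold changes of 0.0087 (limma adjusted p 0.966) and 0.21 (limma adjusted p 0.397). The tested probe of Ftsj1, a methyltransferase of transfer RNA and the nearest neighbour on one side, lay below hSRY-OFF on every hSRY-ON array, from 8.13 ± 0.068 to 7.92 ± 0.14 (SD, n = 3 each), but its log2 fold change of -0.21 did not pass (limma adjusted p 0.264). The probes of Ssxb10 and Ssxb9 were not tested, being detected on 1 and 0 arrays, and Gm33135 and Ssxb1 were not analysed here. That no tested neighbour reached the size of the difference in Slc38a5 follows from the choice of Slc38a5 by its fall.

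Other amino acid transporters, from a list of 48 genes of the SLC1, SLC6, SLC7, SLC16, SLC17, SLC32, SLC36, SLC38 and SLC43 families and Slc3a1, showed 0 calls among 34 tested probes of 26 genes, 8 of them at an unadjusted p under 0.05 by limma, where all probes gave 2.17% and 20.9%. The probes split into 16 above 0 and 18 below 0, around a median log2 fold change of -0.0079 (0.04 without hSRY-ON array 3, otherwise down to -0.08 with an array left out) and a range from -0.80 to 0.47. The lowest p-values were those of Slc17a7, which loads glutamate into synaptic vesicles and went from 11.84 ± 0.12 to 11.21 ± 0.23 (log2 fold change -0.63, limma adjusted p 0.0595, lower in 3 of 3 hSRY-ON arrays), and of Slc7a4, an orphan relative of the arginine carriers (-0.33, limma adjusted p 0.0940, lower in 3 of 3). The lowest value of the list, chosen after its values were seen, was that of Slc7a10, the exchanger of glycine and D-serine in astrocytes, at -0.80 (SE 0.25, limma adjusted p 0.135). The groups did not overlap in 11 of the 34 probes (32.4%), 8 of them lower and 3 higher in hSRY-ON, where all probes gave 27.7%, 14.2% lower and 13.5% higher. That all of these transporters lay above the -1.83 of Slc38a5 follows from its choice as the largest fall.

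Enzymes that make or use glutamine, serine, glycine, asparagine and proline had 1 call among 31 tested probes of 22 genes, where 2.17% of all probes were called. Prodh, which starts the breakdown of proline, rose from 6.53, 6.41 and 6.39 in hSRY-OFF to 7.56, 7.61 and 7.35 in hSRY-ON, by 1.06 on the log2 scale (SE 0.098, limma adjusted p 0.0225, higher in 3 of 3). The median of this list was 0.052, with no settled sign (-0.01 without hSRY-ON array 3, up to 0.046 without another array), and 9 of 31 probes (29.0%) did not overlap, 2 of them higher and 7 lower, where all probes gave 27.7%, 13.5% higher and 14.2% lower. The values ran from -0.86 to 1.06, with 16 above 0 and 15 below 0. The probe of Glul, the glutamine synthetase of astrocytes, was detected on 0 arrays and was not tested.

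Genes of the response to amino acid shortage, in which the factor ATF4 is known to act, had 2 calls among 32 tested probes of 20 genes, both higher and both of Vldlr, where 0.844% of all probes were called higher. Vldlr encodes a receptor for lipoproteins and reelin, whose function lies outside amino acid metabolism. One called probe, ILMN_2458671, rose by 0.84 on the log2 scale (limma adjusted p 0.0321) and was detected on 2 of 3 hSRY-OFF arrays. The other, ILMN_1230923, was detected on 0 hSRY-OFF and 3 hSRY-ON arrays and was at least 1.47-fold higher in hSRY-ON (limma adjusted p 0.0330), a bound set against the higher of its own signal and the lowest detected signal on each hSRY-OFF array. It passed the detection filter through hSRY-ON alone, and the 3 other tested Vldlr probes had 0.34 to 0.38, none past the threshold. Over the list 27 of 32 values were above 0, around a median of 0.17, where 51.1% of all probes were above 0 around a median of 0.0048. The groups did not overlap in 14 of 32 (43.8%), 12 of them higher and 2 lower in hSRY-ON, where all probes gave 27.7%, 13.5% higher and 14.2% lower. All tested Vldlr probes, ILMN_1230923 among them, were in the 12 higher. Both that count and the 27 above 0 thus hold several probes of a single gene. Over the list, 12 of 32 probes had an unadjusted p under 0.05 by limma, where all probes gave 20.9%. Atf4 itself had 0.26 and 0.14 at its 2 probes, Ddit3 had 0.17 and 0.14 and Trib3 had 0.33 and 0.22. Their limma adjusted p-values were all 0.254 or more. These genes were named after their values were seen, and all had overlapping groups, unlike the 14 probes without overlap.

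Markers of the cell types known to hold Slc38a5 were read beside it, since in whole tissue fewer cells of a type and less RNA per cell cannot be told apart. Brain endothelial markers moved apart, with 2 calls among 25 tested probes of 22 genes, Vwf higher by 1.75 (limma adjusted p 0.0240) and Sox18, an endothelial transcription factor, lower (-0.70, limma adjusted p 0.0263). The groups did not overlap in 13 of the 25 (52%), 6 higher and 7 lower, and 13 had an unadjusted p under 0.05, where all probes gave 27.7% and 20.9%, with 2.17% called. Of the 25 probes, 8 had a positive and 17 a negative log2 fold change, the median was -0.19 (-0.08 without background correction and -0.06 with no filter), and the summed intensity was 23141 to 26440 on hSRY-OFF and 22682 to 23612 on hSRY-ON arrays. The probes of Abcb1a, Abcg2, Erg, Fzd4, Kdr, Slc16a1 and Slco1a4 were detected on 0 arrays. Their part in the fall of Slc38a5 was not tested.

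Astrocyte markers had 2 calls among 21 tested probes of 14 genes, both lower, where 1.32% of all probes were called lower. Aqp4, the water channel of astrocyte endfeet, fell from 11.36, 11.37 and 11.15 to 10.38, 10.66 and 10.41, a log2 fold change of -0.81 (limma adjusted p 0.0275), and Gfap, their intermediate filament, fell from 8.32 ± 0.21 to 7.50 ± 0.044, a log2 fold change of -0.83 (limma adjusted p 0.0308). The groups did not overlap in 10 of 21 probes (47.6%), 3 higher and 7 lower, against 27.7% of all probes. The list as a whole had 10 positive and 11 negative values with a median of -0.04 (-0.09 to -0.0074 with an array left out), and its summed intensity was 62171 to 71019 in hSRY-OFF and 60193 to 68741 in hSRY-ON, with S100b detected on 0 arrays. Whether these falls have a part in that of Slc38a5 was not tested.

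Erythroid markers had 0 calls among 10 tested probes of 9 genes in limma, with 1 at an unadjusted p under 0.05, Car2, which brain cells also express, at -0.25 (limma adjusted p 0.156). Next by p was Klf1, a transcription factor of red cell precursors, at 0.24 (limma adjusted p 0.439). The adult globin genes Hba-a1, Hbb-b1 and Hbb-b2 had -0.08, 0.20 and 0.04, none past the threshold. In all, 6 values were above 0 and 4 below 0, with a list median of 0.069 and no settled sign, since leaving out hSRY-ON array 1 gave -0.08 and leaving out hSRY-OFF array 2 gave -0.06. Only 1 probe (10%) had groups that did not overlap, where all probes gave 27.7% without overlap, 20.9% at an unadjusted p under 0.05 and 2.17% called. The list had summed intensities of 35367 to 42396 in hSRY-OFF and 31659 to 39943 in hSRY-ON. Gata1, Epb4.2, Kel, Rhd, Ermap, Bpgm, Spna1, Hbb-bh1 and Hbb-y were detected on 0 arrays. The values of the tested red cell markers ran from -0.27 to 0.32.

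The lists for other cells of the brain held values in both directions, to be read against 2.17% called and 27.7% without overlap over all probes. Oligodendrocyte lineage probes had 16 of 18 values below 0, 13 (72.2%) without overlap (1 higher and 12 lower), a median of -0.41 and 2 calls, both of the myelin gene Mobp and both lower, with log2 fold changes of -1.05 and -1.36 (limma adjusted p 0.0225 and 0.0348), with summed intensities of 46354 to 55416 in hSRY-OFF and 35727 to 38317 in hSRY-ON. Of the pericyte and smooth muscle probes, 1 of 13 was called, Vtn, which encodes vitronectin, lower (-0.59, limma adjusted p 0.0386) with a list median of 0.0095 (-0.08 to 0.06 with an array left out). Neuronal probes had 1 call among 11, Gap43, a growth cone protein, higher by 0.45 (limma adjusted p 0.0479), with a median of -0.02 (-0.09 to 0.06 with an array left out). Microglial probes had 0 calls among 11 in limma, with 3 at an unadjusted p under 0.05, led by C1qc at 0.45 (limma adjusted p 0.0506) and C1qb at 0.38 (limma adjusted p 0.0733), and a median of 0.21 (0.13 without hSRY-ON array 1). Choroid plexus and meningeal probes had 1 call among 18, the water channel Aqp1, higher by 0.67 (limma adjusted p 0.0348), with a median of 0.18 (0.10 without hSRY-ON array 1 and 0.06 with no filter) and 11 (61.1%) without overlap, 7 higher and 4 lower. The values of that list ran from -1.09 to 0.92. Their part in the values of the transporters was not tested.

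**Figure D4:**
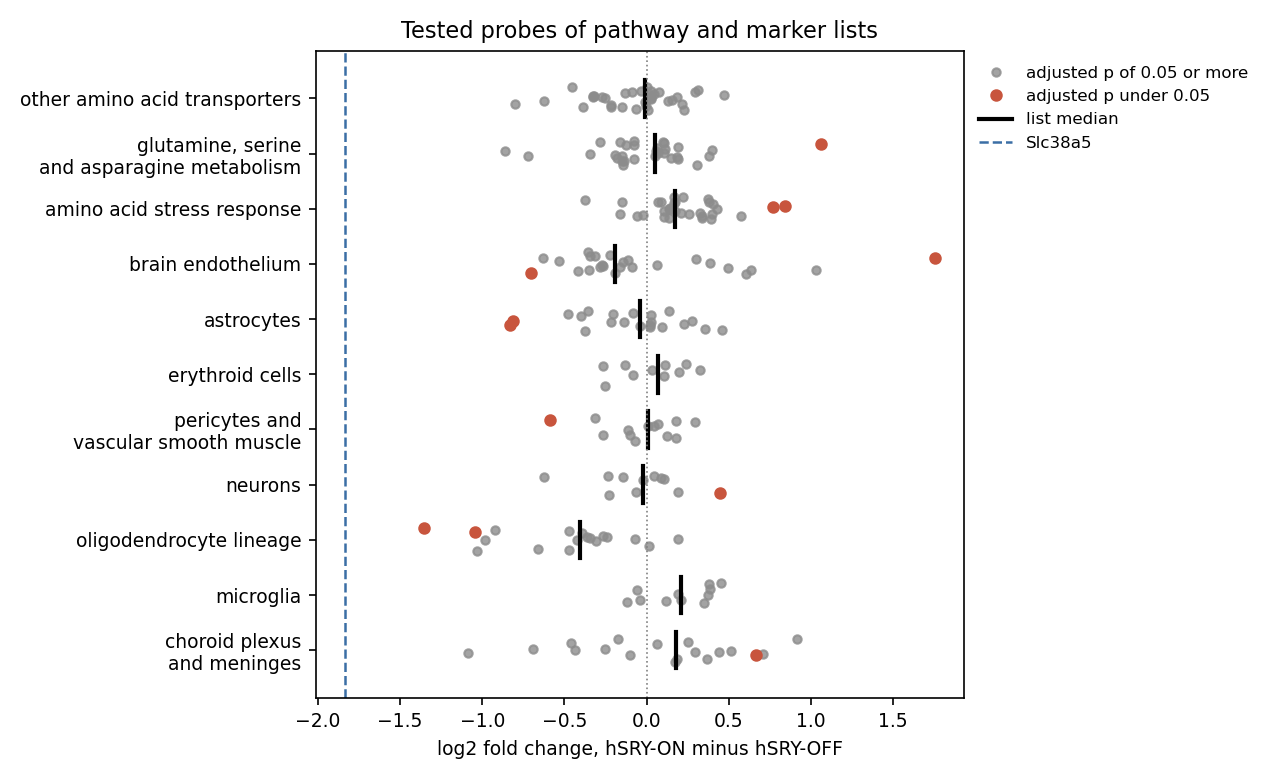
Log2 fold changes, hSRY-ON minus hSRY-OFF (horizontal axis), of the tested probes in 3 lists around amino acid supply and 8 lists of cell markers (vertical axis), with 1 point per probe, red where the limma adjusted p was under 0.05, and a black bar at the list median. The dashed line marks Slc38a5 at -1.83. That it lies below every probe of the 11 lists follows from its choice as the largest fall.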

How the data were processed

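The authors deposited a non-normalized table from Illumina MouseRef-8 v2.0 bead arrays, which holds for each probe and array a mean bead signal intensity on a linear scale and a detection p-value, whose steps point to 798 negative controls. Background correction before deposit is not given in the sources used here. The study's methods name TCC for normalization and differential expression, and the submitters' notes name limma. How either bears on this non-normalized table is not stated. Probe sequences were not used here. One listed marker gene is not reported here.

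Background was removed by limma's nec, a normexp model with controls inferred from the detection p-values (offset 16), and the intensities were quantile normalized and put on the log2 scale. This widens the scatter of dim probes. Fitting took the probes detected (p-value below 0.05) on 3 or more arrays and used lmFit and eBayes (two-sided, group as the only term), with Benjamini-Hochberg adjustment over the 14215 probes. Calls are adjusted p-values below 0.05. Probes of a gene were kept apart, and different probes' signals were not compared as levels. Genes named beyond the members were the called probes of each list (otherwise the 2 of lowest p), the 5 probes of highest r with Slc38a5 and its neighbours. Slc7a10, Atf4, Ddit3, Trib3 and the globin genes were named outside this rule, after their values were seen. Members, lists and rules were chosen with earlier results of these data known. Replicate numbers were not used to pair the samples. The deviations of arrays with the same number correlated at 0.025 to 0.040, and those with different numbers at -0.023 to -0.0054. Values this small do not settle whether the samples were paired. The fit was tested on simulated data. The precision is limited by 3 arrays per group. Alternatives were other background corrections, normalizations, filters, priors and weights, a replicate block and leaving out each array. R 4.3.3, limma 3.58.1, Python 3.11.15 and matplotlib 3.10.9 were used.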

Additional observations from a re-analysis of the deposited data

How the results depend on the processing

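An offset of 50 in the main correction and a threshold of 0.10 were added after seeing the data. Slc38a5 stayed negative under 16 alternatives, at -2.15 to -1.54, and its difference from the lowest relative was -1.67 to -1.17. The number of calls moved more. Over all probes, 308 calls became 1317 without background correction, 860 with normexp on the signals at an offset of 50 (in place of 16), 123 with no filter, 705 with the strict filter, 1447 with a trended robust prior, 480 with array weights, 999 at an adjusted p of 0.10, and 0 to 417 when an array was left out (417 without hSRY-ON replicate 3, otherwise 0 or 1). Without background correction, with that normexp setting and with the trended prior, 2 relatives were called each time (Slc38a3 and the bright Slc7a3 probe), and 0 to 1 when an array was left out. Other transporters then had 5, 4 and 6 calls, metabolic enzymes 3, 3 and 3, stress genes 7, 6 and 9, and markers, with 9 calls as reported, 41, 30 and 41. The strict filter gave 1, 2, 4 and 24 in the same order. Enzymes had 2 calls with median scaling and with array weights, and markers 15 with the weights and 5 with no filter. Leaving out an array gave 0 to 2 calls for enzymes, 0 to 1 for stress genes and 0 to 17 for markers. With a replicate block there were 0 calls over all probes, enzymes, stress genes and markers, and the fold changes stayed the same by construction. The bright Slc38a2 probe turned to -0.0022 without hSRY-OFF replicate 2 and -0.0972 without hSRY-ON replicate 1, within a range of -0.0972 to 0.116 over the arrays left out. The cause of these changes was not tested, other than that filters change the number of probes and that leaving out an array leaves fewer samples.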
